A study of Mus musculus with 6 samples.

Results

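The genes described here build and run the primary cilium, and they were followed on 6 microarrays of mouse NIH3T3 fibroblasts, 3 of GGCT-OE cells and 3 of cells with the empty vector. The list holds 48 genes of intraflagellar transport, the BBSome, the transition zone, the basal body and the ciliary regulators of hedgehog signalling. They were found on the arrays by matching transcript accessions to RefSeq symbols. Of the 48, 45 had a probe that the files of both slides name alike, and 43 could be tested, out of 23928 genes or unnamed transcripts tested and 45022 represented in all.

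GGCT-OE cells stably express GGCT, gamma-glutamylcyclotransferase, from a retroviral pCX4bsr vector, and empty cells carry the control vector. Both are NIH3T3, an established mouse embryonic fibroblast line, and both were grown in 2% serum. The titles number the experiments 1 to 3 in each group, and the design text calls them independent. The labels describe 1 establishment of the cells, do not say whether it was repeated or whether single clones were picked, and name no promoter, so what the p-values capture is the spread among these cultures, which may be partly technical. The comparison is between these GGCT-OE cells and these empty cells. With 1 establishment described, an effect of GGCT cannot be told apart from other differences between the cells. Values are log2 processed signals relative to the array's 75th percentile, differences are GGCT-OE minus empty, and a gene is called higher or lower where the limma p, adjusted over all 23928, is under 0.05.

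A primary cilium is a single, non-motile antenna that grows from the mother centriole of a resting cell and is taken down before the cell divides. Its parts are carried along the axoneme by intraflagellar transport trains: the IFT-B complex works with kinesin-2 towards the tip, and the IFT-A complex works with dynein-2 back to the base. The transition zone at the base is a gate for proteins and lipids, and the BBSome moves membrane proteins through it. Vertebrate hedgehog signalling runs through this organelle, and fibroblasts such as NIH3T3 are a common model for it. Many ciliary genes carry an X-box in their promoter, the motif that RFX transcription factors bind. Ciliation itself was not measured on these arrays.

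The promoters of the 3 called genes with the largest decrease (Ift88, Dync2h1, Ift57) and of the 3 with the largest increase (Bbs1, Cep290, Ift22) are shown to set the X-box of genes that moved in opposite directions side by side. Each runs 5′ to 3′ in the direction of the gene over 300 bases, 250 before and 50 after the start site, from RefSeq on GRCm38.p6. Capitals mark the X-box half-site GTTGCC on either strand, so that a match on the opposite strand reads GGCAAC.
Ift88 (chr14:57423821-57424120, + strand): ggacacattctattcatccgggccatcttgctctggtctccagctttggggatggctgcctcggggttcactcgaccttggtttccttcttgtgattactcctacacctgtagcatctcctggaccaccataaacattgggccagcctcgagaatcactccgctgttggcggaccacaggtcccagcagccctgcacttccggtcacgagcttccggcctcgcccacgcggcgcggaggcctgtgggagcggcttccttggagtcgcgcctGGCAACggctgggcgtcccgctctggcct
Dync2h1 (chr9:7177009-7177308, - strand): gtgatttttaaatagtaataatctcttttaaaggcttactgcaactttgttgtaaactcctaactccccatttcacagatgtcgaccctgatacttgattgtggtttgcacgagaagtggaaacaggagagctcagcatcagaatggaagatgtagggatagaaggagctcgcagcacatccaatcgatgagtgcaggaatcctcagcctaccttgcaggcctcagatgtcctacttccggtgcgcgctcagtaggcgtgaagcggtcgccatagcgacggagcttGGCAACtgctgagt
Ift57 (chr16:49699044-49699343, + strand): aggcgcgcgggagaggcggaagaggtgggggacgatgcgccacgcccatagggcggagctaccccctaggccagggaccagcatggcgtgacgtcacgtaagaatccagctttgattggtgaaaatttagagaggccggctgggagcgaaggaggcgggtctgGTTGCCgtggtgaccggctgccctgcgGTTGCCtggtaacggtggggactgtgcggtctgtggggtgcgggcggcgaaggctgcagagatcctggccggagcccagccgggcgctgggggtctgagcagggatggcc
Bbs1 (chr19:4906578-4906877, - strand): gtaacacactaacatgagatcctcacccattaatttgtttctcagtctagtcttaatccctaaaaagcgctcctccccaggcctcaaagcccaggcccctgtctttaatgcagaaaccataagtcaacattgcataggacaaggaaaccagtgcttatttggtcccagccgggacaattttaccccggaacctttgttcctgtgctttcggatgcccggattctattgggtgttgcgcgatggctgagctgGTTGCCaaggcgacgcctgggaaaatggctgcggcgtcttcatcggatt
Cep290 (chr10:100487332-100487631, + strand): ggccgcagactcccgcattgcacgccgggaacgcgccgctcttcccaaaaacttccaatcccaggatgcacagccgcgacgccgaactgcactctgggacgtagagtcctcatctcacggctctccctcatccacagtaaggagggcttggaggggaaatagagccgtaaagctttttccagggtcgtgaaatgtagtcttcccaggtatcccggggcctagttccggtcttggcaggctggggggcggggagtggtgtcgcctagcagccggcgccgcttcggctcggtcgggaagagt
Ift22 (chr5:136907900-136908199, + strand): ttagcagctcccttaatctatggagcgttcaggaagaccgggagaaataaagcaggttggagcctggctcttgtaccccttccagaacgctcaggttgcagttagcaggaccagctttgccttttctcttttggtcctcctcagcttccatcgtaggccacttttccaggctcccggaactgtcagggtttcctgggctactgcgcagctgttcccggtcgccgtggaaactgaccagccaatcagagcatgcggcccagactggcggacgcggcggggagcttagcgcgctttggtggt

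In these windows Ift88 had 1 half-site, on the opposite strand 22 bases after the start site, and Dync2h1 had 1, on the opposite strand at 37. Ift57 had 2, at -87 and -60, and Bbs1 had 1, at 2. The letters were not in the Cep290 and Ift22 windows. Promoters were matched for 43 of the 48 listed genes. The half-site was in 20 of these 43 genes (46.5%), against 14.1% of 27025 genes with a promoter in the table. Its share was 40.0% of the 10 called higher with a promoter (4 genes), 42.9% of the 7 called lower (3 genes) and 45.5% of the 22 not called (10 genes).

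The full palindromic X-box (GTTNCC, any 2 bases, then GGNAAC, which reads the same on both strands and overlaps the half-site where its first N is G) was in 3 of the 43 genes (6.98%), against 0.529% of all genes. The 3 matches are shown because they were the only ones with this 2-base spacing, the one spacing searched, and each holds the half-site in its first letters.
Bbs7 (chr3, -121 to -108 from the start site): GTTGCCTTGGAAAC
Tctn1 (chr5, 37 to 50 from the start site): GTTGCCCGGGCAAC
Mks1 (chr11, -24 to -11 from the start site): GTTGCCAGGGGAAC
Of these, Mks1 was called higher, Tctn1 had a difference of 0.54 and missed the threshold, and Bbs7 had a difference of 0.03. A match is a description of the letters in the window.

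Across the arrays, 54.6% to 61.7% of probes were well above background, each array's 75th percentile signal was 380.0 to 471 units and no spot was saturated. Ggct stood at -0.14, 0.20 and -0.16 on the GGCT-OE arrays and at -0.57, -0.72 and -0.66 on the empty arrays, a difference of 0.62 ± 0.12 (SE, limma adjusted p = 0.0111). Whether the vector carries mouse or human GGCT is not given in these sources, so it is not known whether the probe reads the introduced GGCT. Its difference was not taken as a measure of the overexpression. Of 10 fibroblast markers 9 were above background, and Epcam, Cdh1, Krt18 and Cldn4 of epithelium and Ptprc of leukocytes stayed dim, not well above background, on every array. Markers of other cell types were not all dim. Bright enough to be tested were 1 of 5 epithelial, 3 of 5 leukocyte, 2 of 4 endothelial and 2 of 5 neural and glial markers.

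Ciliary genes moved both ways between GGCT-OE and empty cells, and none by as much as 2-fold, where 8.95% of all tested genes were called with at least that fold. Of the 43 tested, 11 were called higher and 7 lower, where 17.5% of all tested genes were called higher and 17.2% lower. In all, 41.9% of the tested ciliary genes were called, beside 34.8% of all tested genes. The median difference of the ciliary genes was 0.05, beside 0.02 over all genes, and the median size of a difference was 0.28, beside 0.29. All 43 were well above background on all 6 arrays. In bulk RNA, fewer cells with a transcript and less of it per cell cannot be told apart.

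**Figure D1:**
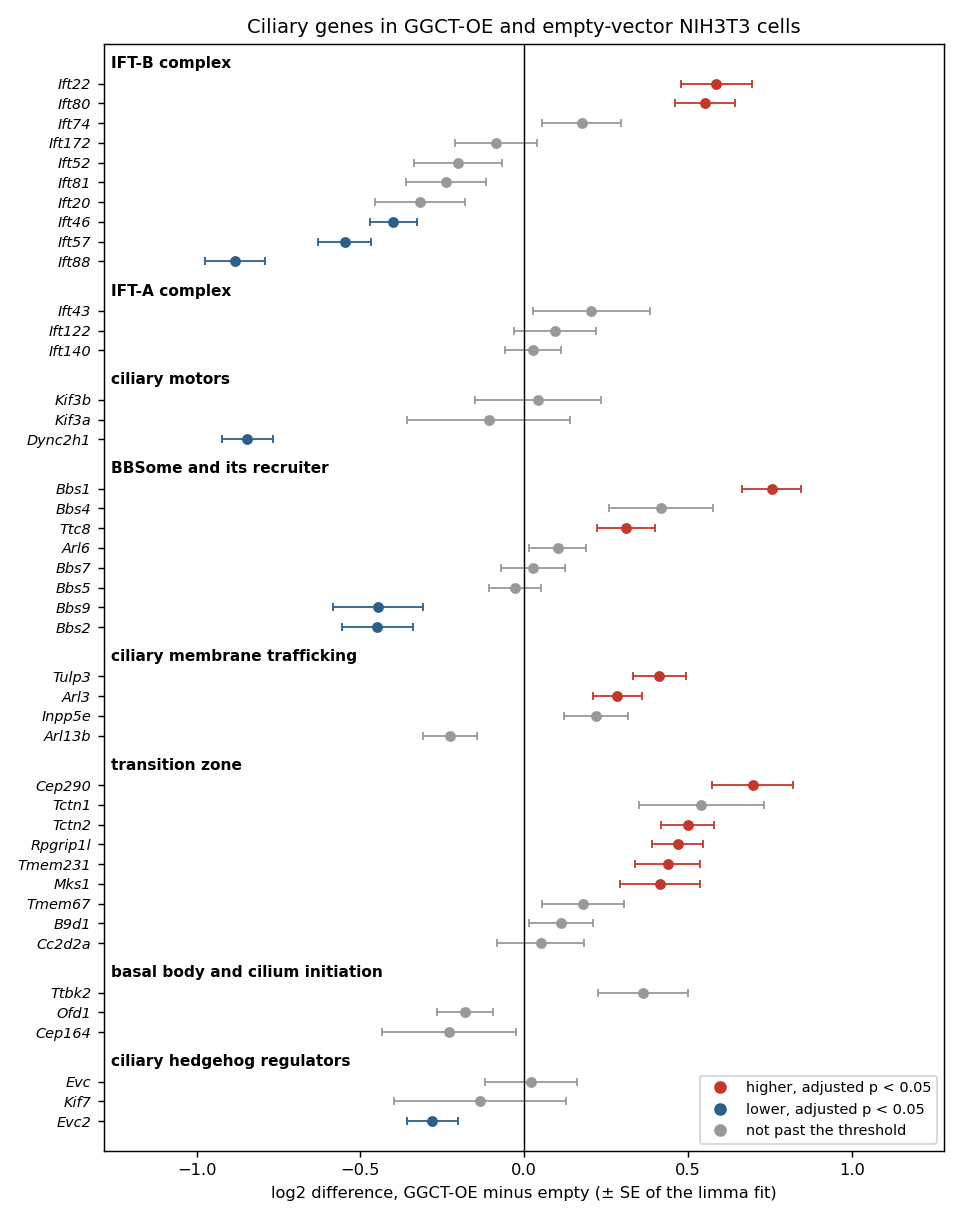
The plot gives the log2 difference, GGCT-OE minus empty, of the 43 tested ciliary genes by role, with bars of 1 SE from the limma fit (3 arrays against 3); red marks genes called higher, blue lower and grey neither. Transition zone genes all sit right of 0, between 0.05 and 0.70, and IFT-B genes lie between -0.88 and 0.59.

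Among the IFT-B subunits, which form the anterograde part of the train, 3 of 10 were called lower and 2 higher. Over all tested genes 17.2% were called lower and 17.5% higher. The median difference of the 10 was -0.22. Ift88, the subunit whose hypomorphic allele in mice gives short cilia and cystic kidneys, stood at 1.490, 1.376 and 1.501 on the GGCT-OE arrays and at 2.268, 2.292 and 2.454 on the empty arrays. The 3 GGCT-OE arrays lay together, well below all empty arrays. The difference was -0.88 ± 0.09 (SE, n = 3 each; 1.84-fold lower, limma adjusted p = 0.0011), the largest in size among the ciliary genes tested. It was -0.78 on slide 1 and -0.93 on slide 2, and a further Ift88 probe gave -0.80.

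Ift57, a peripheral IFT-B subunit, had 2.29, 2.13 and 2.23 in GGCT-OE cells, against 2.74, 2.79 and 2.77 in empty cells. Its groups did not overlap, and it was 1.46-fold lower in GGCT-OE (difference -0.55 ± 0.08, limma adjusted p = 0.0040). Ift46, a core IFT-B subunit, had 3.63, 3.63 and 3.66 in GGCT-OE cells and 4.02, 4.02 and 4.07 in empty cells. Each group was narrow, and the gap between them was 1.32-fold (difference -0.40 ± 0.07, adjusted p = 0.0083). A further Ift46 probe gave -0.43, while the mean over its 3 probes, 1 of them dim, gave -0.30 with a limma adjusted p of 0.337.

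The other 2 called IFT-B genes were higher. Ift22, a Rab-like GTPase of the complex, had 0.03, -0.06 and -0.08 in GGCT-OE cells, against -0.44, -0.77 and -0.66 in empty cells. Its groups were apart by more than their own ranges, and the difference was 0.59 ± 0.11 (limma adjusted p = 0.0089). Ift80, whose human gene is mutated in a skeletal ciliopathy, had 2.07, 1.98 and 1.88 in GGCT-OE cells and 1.37, 1.38 and 1.52 in empty cells. It was 1.46-fold higher in GGCT-OE, with no overlap (difference 0.55 ± 0.09, limma adjusted p = 0.0061), and its second tested probe gave 0.23. So subunits of 1 complex were called in opposite directions on the same arrays.

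The remaining IFT-B genes missed the threshold. Ift20, the subunit also found at the Golgi, had a difference of -0.32 with overlapping groups, yet it was lower in GGCT-OE in all 3 same-numbered pairs (-0.29 on slide 1 and -0.33 on slide 2). Its limma adjusted p was 0.126, and 0.0103 with the experiment number as a block. Ift52 (-0.20) and Ift74 (0.18) also missed the threshold without a block and passed with that block (limma adjusted p = 0.0333 and 0.0473). With the slide as the block they passed too (0.0210 and 0.0337). Ift81, the tubulin-binding partner of Ift74, had -0.24, and Ift172, a peripheral subunit with a role at the ciliary tip, had -0.09.

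None of the 3 IFT-A genes, which serve return transport and the entry of membrane receptors, was called, beside 34.8% of all tested genes. Ift43 had a difference of 0.21 (limma adjusted p = 0.429, and 0.0392 with the block), Ift122 had 0.09 and Ift140 had 0.03. The groups overlapped for each. Ift140 had a difference below 0 with the median shift (-0.00073), on slide 2 alone (-0.019) and without GGCT-OE replicate 1 (-0.028). Averaged over its probes, of which the further one was too dim to be tested, Ift140 had -0.35.

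Of the 3 motor genes tested, 1 was called, the one for return transport, beside 34.8% of all tested genes. Dync2h1, the heavy chain of dynein-2, had 0.42, 0.31 and 0.36 in GGCT-OE cells, against 1.17, 1.25 and 1.21 in empty cells. Both groups were tight and far apart, and Dync2h1 had the smallest adjusted p of the ciliary genes tested. The difference was -0.85 ± 0.08 (1.80-fold lower, limma adjusted p = 0.00075), with -0.75 on slide 1, -0.89 on slide 2 and -0.69 for a further probe. Kif3a and Kif3b, the motor subunits of kinesin-2, differed by -0.11 ± 0.25 and 0.04 ± 0.19 (SE), neither past the threshold. Kif3a had 3.47, 2.73 and 2.82 in GGCT-OE cells and 3.47, 2.90 and 2.98 in empty cells, so slide 1 stood above slide 2 in both groups by more than the groups differed. Whether the change in Dync2h1 differs from that in the kinesins was not tested. Kif17, a further kinesin of the cilium, was not well above background on any array.

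**Figure D2:**
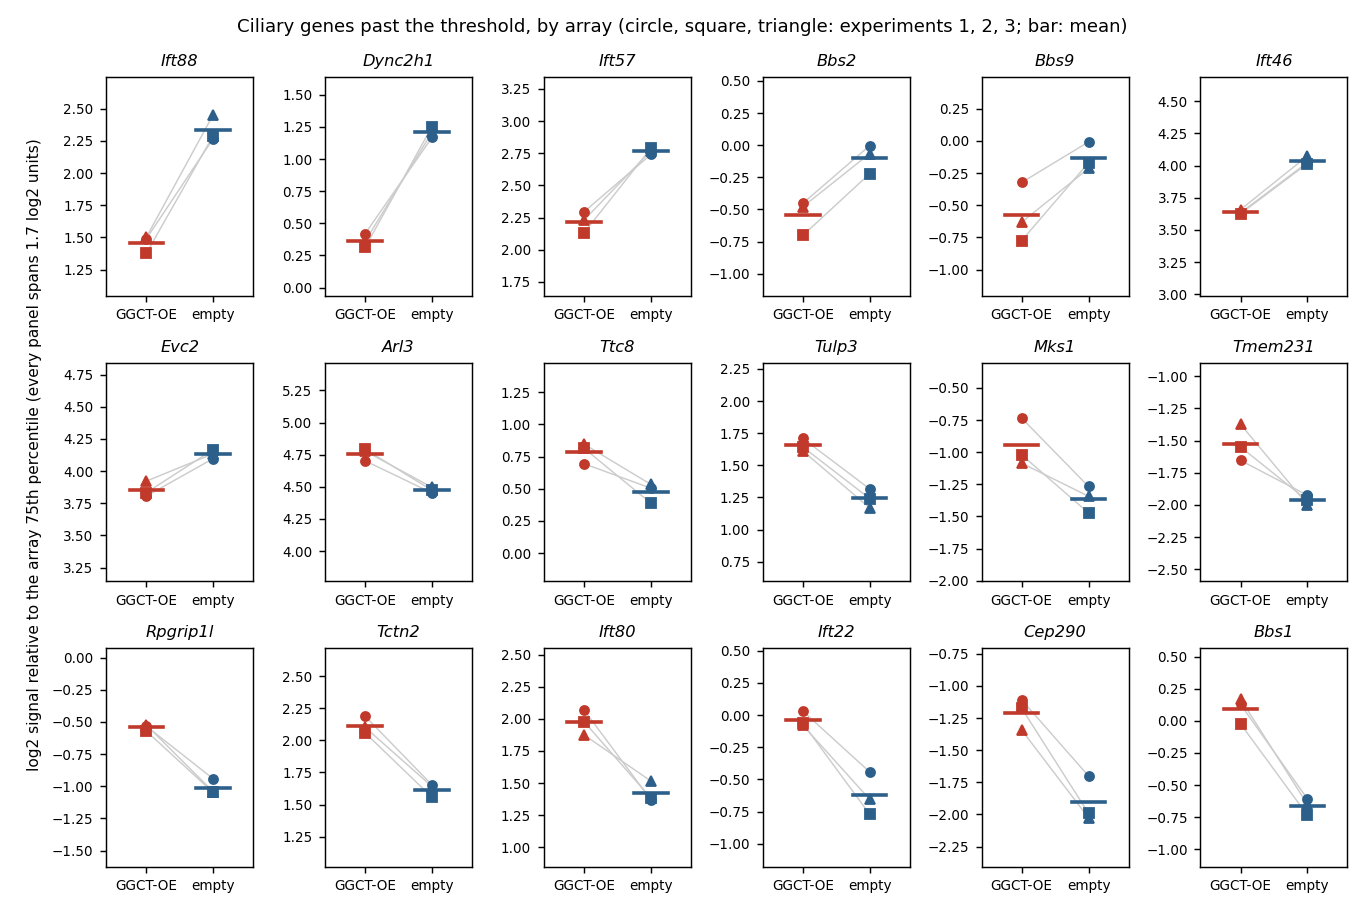
Each panel gives 1 of the 18 called ciliary genes as log2 signal relative to the array's 75th percentile, GGCT-OE arrays in red and empty arrays in blue; circles, squares and triangles are experiments 1, 2 and 3, grey lines join equal numbers and bars are means. Every panel spans the same number of log2 units, and in each the groups do not overlap.

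The BBSome is a coat of 8 subunits in which Bbs1 binds cargo. Of 8 genes tested from it and its recruiter, 2 were called higher and 2 lower, beside 17.5% and 17.2% of all tested genes. Bbs1 had 0.13, -0.02 and 0.17 in GGCT-OE cells, against -0.61, -0.73 and -0.65 in empty cells. The groups were well apart, with a difference of 0.75 ± 0.09 (1.69-fold, limma adjusted p = 0.0019), the largest increase among the ciliary genes tested, and 0.80 for a further probe. Ttc8, also known as Bbs8, had 0.69, 0.81 and 0.85 in GGCT-OE cells and 0.50, 0.39 and 0.53 in empty cells. The gap was small but without overlap, and Ttc8 was 1.24-fold higher in GGCT-OE (difference 0.31 ± 0.09, limma adjusted p = 0.0373). It missed the threshold without GGCT-OE replicate 2 or 3 or any 1 empty array (adjusted p between 0.0722 and 0.123).

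Bbs2, a core BBSome subunit, was lower in GGCT-OE, with -0.45, -0.70 and -0.48 there and -0.0032, -0.22 and -0.07 in empty cells. In each pair of experiments the GGCT-OE array was the lower one (difference -0.45 ± 0.11, 1.36-fold, limma adjusted p = 0.0226). Without GGCT-OE replicate 2 or 3, or without empty replicate 1 or 3, its adjusted p lay between 0.0556 and 0.0825. Bbs9, another core subunit, had -0.32, -0.77 and -0.63 in GGCT-OE cells, against -0.0072, -0.17 and -0.21 in empty cells. It was the weakest of the called genes: the difference was -0.45 ± 0.14 with a limma adjusted p of 0.04999, just under the threshold. The mean of its 2 probes, the second of them dim, gave -0.05 (adjusted p = 0.928), and it missed the threshold without GGCT-OE replicate 2 or 3 or any 1 empty array (0.0989 to 0.140).

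Bbs4, the pericentriolar subunit of the coat, had -0.52, -0.82 and -0.53 in GGCT-OE cells, against -0.79, -1.30 and -1.02 in empty cells. The groups overlapped although all 3 pairs were higher in GGCT-OE. The Bbs4 difference of 0.42 missed the threshold without a block (limma adjusted p = 0.0918). It passed in 3 of 20 alternatives, among them the blocks by experiment number (0.0115) and by slide (0.0360). Bbs5, Bbs7 and Arl6, the small GTPase that recruits the coat to membranes, differed by -0.03, 0.03 and 0.10. For Bbs7 a second, dimmer probe gave 1.13. That probe read -1.32, -2.90 and -3.07 in GGCT-OE cells, against -4.08, -3.34 and -3.25 in empty cells. The groups did not overlap, and GGCT-OE replicate 1 stood well above the rest.

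Proteins that carry lipid-anchored and membrane cargo into the cilium were measured by 4 genes, of which 2 were called, both higher. The shares over all tested genes were 17.5% higher and 17.2% lower. Tulp3, an adaptor that brings receptors such as Gpr161 to IFT-A, had 1.71, 1.64 and 1.61 in GGCT-OE cells, against 1.32, 1.24 and 1.17 in empty cells. The groups were clearly apart (difference 0.41 ± 0.08, 1.33-fold, limma adjusted p = 0.0113), though without empty replicate 3 the adjusted p was 0.0560. Arl3, the GTPase that releases lipidated cargo inside the cilium, had 4.70, 4.79 and 4.78 in GGCT-OE cells and 4.45, 4.47 and 4.50 in empty cells. Each group was narrow, and the gap was 1.22-fold (difference 0.28 ± 0.07, limma adjusted p = 0.0298). Without GGCT-OE replicate 2 or 3 or any 1 empty array the adjusted p lay between 0.0759 and 0.0996.

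Arl13b, the GTPase that activates Arl3 and marks the ciliary membrane, had 0.04, -0.13 and -0.02 in GGCT-OE cells, against 0.17, 0.21 and 0.20 in empty cells. Its groups did not overlap, but the difference of -0.23 missed the threshold (limma adjusted p = 0.0817, and 0.0495 with the block). Inpp5e, the phosphatase that sets the phosphoinositides of the ciliary membrane, had 0.22 (0.138, and 0.0369 with the block), and 1 of its further probes gave -0.17. Tub, a relative of Tulp3, was not well above background on any array.

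No transition zone gene tested was lower in GGCT-OE. All 9 had a difference above 0, under each scaling alternative too, although Cc2d2a had -0.04 without GGCT-OE replicate 1 and -0.03 without empty replicate 3. The median over the 9 was 0.44, and 5 were called higher and none lower, beside 17.5% and 17.2% over all tested genes. Cep290, which joins the axoneme to the membrane and is mutated in several human ciliopathies, had -1.11, -1.17 and -1.34 in GGCT-OE cells, against -1.70, -1.99 and -2.03 in empty cells. The lowest GGCT-OE array lay above the highest empty array, and the difference was 0.70 ± 0.12 (1.62-fold, limma adjusted p = 0.0074). With the normexp background correction, a run that was also quantile normalized, it was 0.46.

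Tctn2, a tectonic of the gate's membrane complex, had 2.19, 2.06 and 2.10 in GGCT-OE cells, against 1.65, 1.56 and 1.64 in empty cells. It was 1.41-fold higher in GGCT-OE without overlap (difference 0.50 ± 0.08, limma adjusted p = 0.0055). Rpgrip1l, a scaffold of the gate, had -0.53, -0.57 and -0.52 in GGCT-OE cells and -0.94, -1.05 and -1.04 in empty cells. Both groups were narrow (difference 0.47 ± 0.08, 1.38-fold, limma adjusted p = 0.0057), and a second Rpgrip1l probe gave 0.52.

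Tmem231, a membrane protein of the gate, had -1.654, -1.549 and -1.373 in GGCT-OE cells, against -1.925, -1.965 and -1.998 in empty cells. The GGCT-OE arrays were the more spread but all higher (difference 0.44 ± 0.10, 1.35-fold, limma adjusted p = 0.0174). With the normexp background the difference was 0.25, and without GGCT-OE replicate 3 or without empty replicate 2 or 3 the adjusted p lay between 0.0538 and 0.0709. Mks1, the B9-domain protein first found in Meckel syndrome, had -0.74, -1.02 and -1.09 in GGCT-OE cells and -1.27, -1.47 and -1.34 in empty cells. The groups were apart (difference 0.41 ± 0.12, 1.33-fold, limma adjusted p = 0.0429), but the call was lost without any 1 array (adjusted p between 0.0587 and 0.132). It was also lost with the normexp background (difference 0.27, adjusted p = 0.0540) and with the mean of its probes (0.33, adjusted p = 0.144).

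Tctn1, the tectonic that carries the long X-box match, had 1.65, 0.99 and 1.20 in GGCT-OE cells, against 0.94, 0.62 and 0.66 in empty cells. Replicate 1, on slide 1, was the highest of each group. Its difference of 0.54 ± 0.19 was larger than that of 4 called transition zone genes and missed the threshold (limma adjusted p = 0.0736), with 0.0103 in the fit with the block. Tmem67, also called meckelin, had 0.18, B9d1 had 0.11 and Cc2d2a had 0.05, all with overlapping groups.

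Of the 3 genes that start a cilium at the basal body, none was called, beside 34.8% of all tested genes. Ttbk2, the kinase that removes the cap from the mother centriole, had 1.01, 0.58 and 0.72 in GGCT-OE cells, against 0.52, 0.40 and 0.29 in empty cells, with no overlap. Its difference of 0.36 had a limma adjusted p of 0.0885, and 0.0258 with the block. Cep164, the distal appendage protein that recruits Ttbk2, had -0.23 (0.436, and 0.0287 with the block), and Ofd1, a protein of the distal centriole, had -0.18 (0.159).

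Among the hedgehog regulators, Evc2, which with Evc passes on the Smoothened signal at the ciliary base, had 3.81, 3.83 and 3.92 in GGCT-OE cells, against 4.10, 4.17 and 4.14 in empty cells. The gap was clear but small, 1.21-fold lower in GGCT-OE (difference -0.28 ± 0.08, limma adjusted p = 0.0354). It was the least stable call, since it was lost without any 1 array (adjusted p between 0.0655 and 0.120) and held in 7 of 20 alternatives. Evc differed by 0.02, and Kif7, the kinesin that orders Gli proteins at the ciliary tip, by -0.14 ± 0.26 (SE).

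For 3 listed genes the probe is named differently by the files of the 2 slides, so its target is uncertain. The probe named Ift27 by the slide 2 files and Meox1 by the slide 1 files had 4.17, 3.86 and 3.91 in GGCT-OE cells, against 4.65, 4.29 and 4.36 in empty cells, a difference of -0.45 (limma adjusted p = 0.0461). The one named Dync2li1 or Olfr566 had -0.04, -0.10 and 0.07 in GGCT-OE cells, against -0.28, -0.35 and -0.28 in empty cells, a difference of 0.28 (adjusted p = 0.0461). The one named Tctn3 or Mup20 differed by 0.25 (limma adjusted p = 0.151). None of these counts as a called ciliary gene here.

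The slides could be compared directly, because slide 1 held experiment 1 and slide 2 held experiments 2 and 3 of both groups. The median difference of the 43 genes was 0.11 on slide 1 and 0.05 on slide 2. The groups of each of the 18 called genes did not overlap, so all 3 pairs, and both slides, necessarily had the same direction. Groups without overlap were also found for 5 genes that were not called. In all, 23 of 43 did not overlap (14 higher, 9 lower), beside 49.4% of all tested genes (25.4% higher, 23.9% lower). An exact 2-sided permutation test cannot go below p = 0.1 with 3 against 3 arrays. All 18 reached that value, as any gene without overlap does, called or not.

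**Figure D3:**
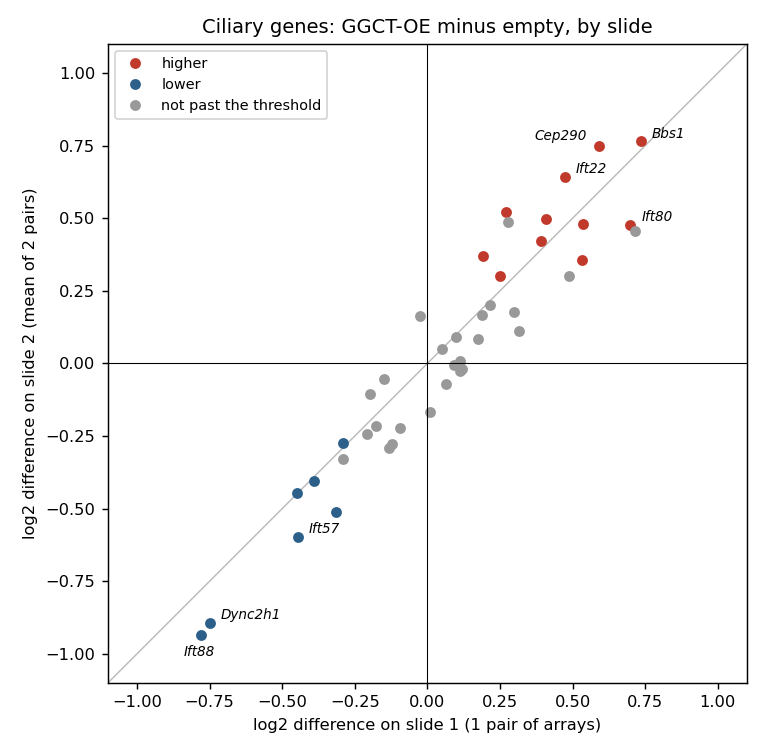
Each point is 1 of the 43 tested ciliary genes, with its log2 difference on slide 1 (experiment 1) on the x axis and on slide 2 (mean of experiments 2 and 3) on the y axis; red is called higher, blue lower, grey neither, and the line marks equal differences. Dync2h1 and Ift88 lie lowest on both slides, and every called gene has the same sign on both, as genes without overlap between groups must.

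How many genes passed depended on the fit. With a median shift in place of the 75th percentile Ttc8, Arl3 and Evc2 missed the threshold (limma adjusted p = 0.101, 0.107 and 0.0604). Without a filter on dim probes 9 of the 18 calls were lost. Evc2 also missed it with quantile normalization (0.0759), and Bbs9 and Evc2 with the normexp background (0.0614 and 0.0543). With the experiment number as a block, 17 ciliary genes were higher and 11 lower, beside 27.3% and 26.0% of all tested genes (53.4% either way), which adds 10 genes and loses none. Without both arrays of replicate 3, Dync2h1 and Ift88 alone kept their call and no gene was called higher. Bbs1 then had an adjusted p of 0.0618, and without both arrays of replicate 2 it was the only gene called higher, beside Dync2h1 and Ift88. In these runs Ift57 had adjusted p-values of 0.0958 and 0.0648, Ift22 0.120 and 0.0874, Ift80 0.0636 and 0.0869, Cep290 0.0790 and 0.101, Tctn2 0.106 and 0.0653, Rpgrip1l 0.130 and 0.0757, and Ift46 0.151 and 0.0900, without replicate 3 and without replicate 2 in that order.

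The same machinery has further genes outside the list, whose counts are to be read beside the 17.5% of all tested genes called higher and 17.2% called lower (27.3% and 26.0% with the replicate block). Of 10 other IFT subunits 2 were called higher and 3 lower, and 4 and 4 with the block. Wdr35, an IFT-A subunit, had 1.79, 1.38 and 1.38 in GGCT-OE cells, against 0.89, 0.64 and 0.63 in empty cells (difference 0.80 ± 0.15, limma adjusted p = 0.0088). Ttc30b and Ttc30a2, copies of an IFT-B gene, differed by -0.64 and -0.58 (limma adjusted p = 0.0059 and 0.0067), the second by -0.34 with the normexp background. The third copy, Ttc30a1, had 0.22 (adjusted p = 0.197, and 0.0369 with the block), and since the copies are near-identical, which of them each probe reads is uncertain. Of 7 other motor subunits 1 was higher, the dynein-2 intermediate chain Wdr60 (0.53), and 1 lower, the light chain Tctex1d2 (-0.45), against 3 and 1 with the block.

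Of 6 other BBS genes 1 was called higher and 1 lower, and 3 and 1 with the block. Bbs12, a chaperonin-like protein of BBSome assembly, had 1.05, 1.26 and 1.00 in GGCT-OE cells, against 0.17, 0.15 and 0.14 in empty cells. Its difference was above that of any of the 43 tested genes of the list (difference 0.95 ± 0.10, 1.93-fold, limma adjusted p = 0.0011). Lztfl1, a regulator of BBSome entry, was lower (-0.36, adjusted p = 0.0165), and Bbip1 missed the threshold (0.60, adjusted p = 0.0511). Of 15 other transition zone and nephronophthisis genes 2 were called higher, among them Nphp4 (0.42, limma adjusted p = 0.0291), and 1 lower, Rpgr (-0.52, adjusted p = 0.0070), and 11 of the 15 differences were above 0, with a median of 0.13. Averaged over their probes, rather than by the brightest, Rpgr had -0.10 and Lztfl1 0.01. Of 14 distal appendage and basal body genes 5 were called higher, led by Talpid3 (0.76, limma adjusted p = 0.0015), Cep89 (0.71) and Sclt1 (0.34), and none lower, while with the block 7 were higher and 2 lower.

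**Figure D4:**
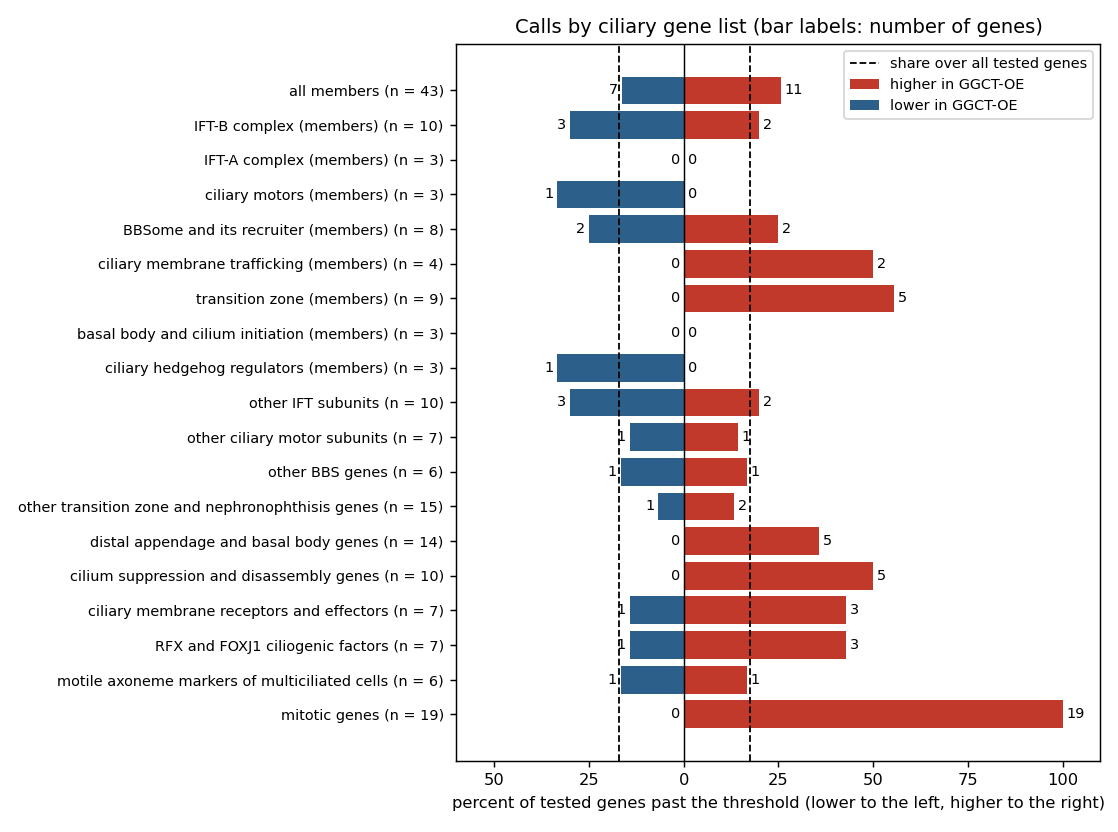
Bars give the percent of tested genes called lower (blue, left of 0) and higher (red, right of 0) in GGCT-OE for the ciliary genes by role and for further ciliary and cell cycle lists, with the number of genes at each bar and, as dashed lines, the shares over all tested genes (17.2% lower, 17.5% higher). The transition zone genes have 5 higher and none lower, and all 19 mitotic genes are higher.

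Of 10 genes that hold back or dismantle cilia, 5 were called higher and none lower, beside 17.5% and 17.2% of all tested genes, and 6 and 1 with the block. Kif24, a kinesin that keeps the centriole capped, had -1.08, -1.28 and -1.32 in GGCT-OE cells, against -2.28, -2.81 and -2.44 in empty cells (difference 1.29 ± 0.16, limma adjusted p = 0.0021), and 0.81 with the normexp background. Aurka and Nek2, kinases of ciliary disassembly, differed by 1.08 and 1.00 (adjusted p = 0.0028 and 0.0022). These kinases also act in mitosis, and beside them all 19 tested genes of a mitotic list were higher, with a median difference of 0.97 and 1.42 for Bub1, 1.11 for Cenpe and 1.02 for Bub1b. The part of the cell cycle in the ciliary differences was not tested.

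Of 7 ciliary receptors and effectors 3 were higher and 1 lower, with and without the block: Gpr161, a receptor that restrains hedgehog signalling, by 0.65 (limma adjusted p = 0.0055), Pdgfra, the growth factor receptor that signals in fibroblast cilia, by 0.86 (0.0087), Smo among the higher ones, and Pkd2, the ciliary channel polycystin-2, with -0.70 (0.0131). Adcy3, Sstr3 and Htr6, used as ciliary markers in neurons, were not well above background.

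Of 7 RFX and FOXJ1 factors of the ciliary programme 3 were called higher and 1 lower, and 4 and 1 with the block. Rfx3, an activator of ciliary genes, had -0.25, -0.39 and -0.23 in GGCT-OE cells, against -0.93, -0.95 and -1.03 in empty cells, without overlap (difference 0.68 ± 0.09, 1.60-fold, limma adjusted p = 0.0023). Rfx2 had -3.62, -3.80 and -3.59 in GGCT-OE cells and -5.15, -4.68 and -4.93 in empty cells, of which 1 array was above background. Its difference of 1.25 (limma adjusted p = 0.0015) shrank to 0.31 with the normexp background. Ccno, of the multiciliated programme, was lower (-0.49, adjusted p = 0.0132), and Foxj1, the master factor of motile cilia, was not well above background on any array.

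Markers of multiciliated cells were mostly dim: of 15, 6 were tested, with 1 called higher and 1 lower, and 1 and 3 with the block. Over all tested genes 17.5% were called higher and 17.2% lower, and 27.3% and 26.0% with the block. Ccdc39 was higher by 0.61 (0.24 with the normexp background), Dnai2, above background on 1 of 3 GGCT-OE arrays, was lower (-1.05, and -0.21 with the normexp background), and Tekt2 had -0.45 without passing. Fibroblast markers moved beside the ciliary genes: of 9 tested 5 were lower and none higher (7 and none with the block). The shares over all tested genes were 17.2% lower and 17.5% higher (26.0% and 27.3% with the block). The median of the fibroblast markers was -0.57, and among the lower ones were Col1a1 (-0.99), Pdgfrb (-0.94) and Col1a2 (-0.69). Krt8 of epithelium had a difference of 1.18, Cd68 of leukocytes -0.27, Pecam1 of endothelium 0.43 and Gfap of glia 0.53, all called. With the normexp background Krt8 had 0.64, Pecam1 0.22 and Gfap 0.22. Cdh5 of endothelium was at least 2.18-fold higher in GGCT-OE, since it was not well above background on any empty array. The part of these markers in the ciliary differences was not tested. Of the genes outside the list named as called, Cd68 passed in 7 of 20 alternatives, Pecam1 in 8, Tctex1d2 in 10, Nphp4 in 11, and Smo, Ccdc39 and Dnai2 in 12.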

How the data were processed

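Total RNA of the 6 cultures was labelled with Cy3, per the labels, and hybridised to Agilent 1-colour arrays. The deposited scanner files hold spot intensity, which per the file headers came from Feature Extraction 12.1.0.3 with background subtraction within each array. The authors' deposited value table holds log2 values and was used as an alternative. For the 17347 to 18547 brighter probes compared on each array, its column equalled the array's log2 processed signal minus a constant. Dimmer probes were not compared. Control spots (3671 per array) and flagged spots (578 in all) were left out, and spots of 1 probe were averaged, which left 56570 probes. Of these 34216 (60.5%) were named through RefSeq accessions without versions (GRCm38.p6), and 334 probes that the files of the 2 slides assign to different genes stayed unnamed.

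The array's 75th percentile was subtracted from log2 processed signal. The brightest probe stood for a gene and entered the test if all 3 arrays of either group had it well above background. Groups were compared with limma 3.58.1 in R 4.3.3 (lmFit, eBayes, 2-sided, no block), with Benjamini-Hochberg adjustment over all 23928 genes. Where a group was not above background on any array, the fold is a bound against the lowest signal among probes well above background. On simulated data for these 23928 genes, 100 genes were changed 2-fold and 100 genes 4-fold, with noise drawn independently for each array. Of these changes 63% and 82% were recovered, with 7 false calls. In the real data 34.8% of genes were called and arrays moved together by experiment number, so these rates do not carry over. The number of arrays limits the precision.

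Arrays of equal number moved together around their group means (correlations of 0.731, 0.453 and 0.358, over all tested genes, in experiments 1, 2 and 3). The numbers were taken to pair the arrays in an alternative fit, not in the main one. Deviations of different numbers also correlated on slide 2 (0.300 and 0.343), and slide 1 held experiment 1 alone. Pairing by number is therefore hard to tell apart from the slide. Values with the block are given where they change the call of a listed gene, and for the further lists as counts.

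The gene list, its roles and the further lists were chosen with earlier results of these data known. All listed genes are reported, those past the threshold with every array, and up to 3 genes with the smallest p from each further list. Smo, dim markers and other genes named beyond that were chosen after their values were seen. One gene that the rule would name is not reported here. Alternatives changed the scaling (quantile, median), the background, the filter on dim probes or the probe rule (mean or every probe). Others changed the variance model (trended, robust), the block (number or slide) or the source (deposited table), or left out arrays, numbers or slide 1. The background run used normexp with offset 50 on median signals, followed by quantile scaling, so it changed more than the background. Using the names of the slide 2 files was added after seeing the data.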

Additional observations from a re-analysis of the deposited data

How the results depend on the processing

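The counts of ciliary genes called higher and lower (11 and 7) and of all genes (4194 and 4125) moved by more than 1.5 times under some settings. Without a filter on dim probes they were 6 and 3 ciliary genes and 2240 and 2507 genes in all. With the replicate block they were 17 and 11, and 6543 and 6228 in all, and the block ended no call of a ciliary gene. With the slide block they were 17 and 12, and 6616 and 6226 in all. Leaving out 1 array gave 6 to 10 ciliary genes higher and 4 to 6 lower, and 2579 to 3807 and 2776 to 4014 in all. The counts were 1 and 2, and 1362 and 1682 in all, without replicate 2 of both groups, 0 and 2, and 779 and 1156 in all, without replicate 3 of both groups, and 12 and 7, and 4640 and 4576 in all, on slide 2 alone. The names of the slide 2 files, an alternative chosen after seeing the data, gave 12 and 7. Fewer arrays enter the runs that leave some out, slide 2 alone among them, where the counts were not lower. The cause of the changes in counts was not tested. Among 18 called genes, Dync2h1 and Ift88 passed in all 20 alternatives, and 10 kept their call without any 1 array.

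No called ciliary gene changed direction. Of 860 values of ciliary genes under the alternatives, 25 changed sign, in 9 uncalled genes. With the median shift Ift140 had -0.00073 and Evc -0.0076. Averaging a gene's probes gave Ift140 -0.35 and Kif7 0.12, where the further probe of each was too dim to be tested. On slide 2 alone Ift140 had -0.019, Bbs7 -0.0040 and Evc -0.027. Without replicate 2 of both groups Ift172 had 0.020, and without replicate 3 of both groups Bbs5 had 0.022, Bbs7 -0.0053 and Evc -0.00056. Leaving out 1 array gave ranges across 0 for Ift140 (-0.028 to 0.063), Kif3a (-0.34 to 0.067), Kif3b (-0.13 to 0.18), Bbs5 (-0.067 to 0.011), Bbs7 (-0.036 to 0.098), Cc2d2a (-0.043 to 0.14), Kif7 (-0.33 to 0.087) and Evc (-0.10 to 0.10). The differences of Cep290, Tmem231 and Mks1 were smaller with the normexp background, which also brought median signals, the offset and quantile scaling. Which step made them smaller, and whether signal over background limits the dim genes, was not tested.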
